A study of Neurospora crassa with 24 samples.

Results

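A set of 52 genes of the filamentous fungus *Neurospora crassa* is described here, out of 9412 genes tested and 10561 genes counted by RNA-seq. The set holds genes whose mRNA was low in the light and high in the dark in the wild type (WT), and whose dark level in the velvet mutant ∆*ve-1* stayed within 2-fold of the wild type. The members were chosen by these very values: a mean in WT light of at most 33.3% of that in WT dark, all 3 light libraries below all 3 dark libraries, at least 10 CPM (counts scaled to the size of the library) in WT dark, and a ∆*ve-1* dark mean between 0.5 and 2 times the WT dark mean. Comparisons with WT libraries are therefore given as a description, with no test. The same thresholds on light alone selected 384 genes. Of these, 332 were below 0.5 times the wild type in dark ∆*ve-1*, none was above 2 times, and the 52 members made up the rest.

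The libraries came from 4 strains kept in continuous light or continuous darkness, 3 libraries for each strain in each condition and so 8 conditions in all. The strains were WT, ∆*ve-1*, a strain labelled as the white-collar mutant ∆*wc-1* (w below) and a strain labelled as the velvet and white-collar double mutant ∆*ve-1* ∆*wc-1* (vw below). The study names mating type A for WT and ∆*ve-1* in its separate time course, and the labels of these libraries give none. Cultures were grown at 22°C on plates of crossing medium, for which 7 days of incubation up to fertilization are described, and were collected 1 day before fertilization, when the mycelium carries the unfertilized female structures called protoperithecia. A library may hold pooled tissue of several replicates, and a difference in mRNA level between libraries may come from fewer cells of a type or from less RNA per cell, which cannot be told apart here.

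The velvet proteins are fungal regulators that bind DNA and couple development to light. In *N. crassa*, VE-1 works with VE-2 and the methyltransferase LAE-1, and its loss favours asexual spores (conidia) over female structures. WC-1 is the blue-light photoreceptor of the white-collar complex, a transcription factor that switches on genes such as *vvd* and the carotenoid gene *al-2* when light is perceived.

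Of the deleted genes, *ve-1* had 261.6 CPM ± 37.1 (SD, n = 3) in WT dark and 2.80 CPM ± 0.935 in dark ∆*ve-1*, whereas *wc-1* had 21.8 CPM ± 5.41 in WT dark and 59.9 CPM ± 8.06 in the dark w libraries. The *wc-1* transcript thus goes against that label, and these strains are called by their labels, w and vw, throughout. The light control *vvd* was at 13.9 CPM ± 4.30 in WT dark and 781 CPM ± 275 in WT light, and at 5.74 CPM ± 2.63 and 4.49 CPM ± 2.29 in the w libraries. Likewise *al-2* went from 56.1 CPM ± 1.73 to 571 CPM ± 237 in WT and was at 45.2 CPM ± 9.89 and 71.3 CPM ± 15.5 in the w libraries. The total count per library was 30246878 to 42697941. Several libraries stood apart. The 10 most abundant genes held 6.41 to 9.31% of the counts in WT dark, 18.7 to 27.1% in WT light and 16.3 to 21.4% in dark ∆*ve-1*, and 26.7%, 23.9% and 21.3% in light replicate 1 of w and in dark and light replicate 2 of vw. The share of even counts was 59.8 to 63.7% in WT dark, 80.3 to 90.2% in WT light and 73.5 to 82.6% in dark ∆*ve-1*, and highest in light replicate 1 of w (93.3%). It did not simply follow the share of the 10 most abundant genes. Light replicate 2 of ∆*ve-1* had 64.7% even counts at a share of 15.2%, and dark replicate 2 of ∆*ve-1* 76.7% at 16.3%. Dark replicate 1 and light replicate 3 of vw had the highest rank correlation of any pair of libraries (0.992), although their labels differ in light. The summed level of 6 conidiation markers (*con-6*, *con-8*, *con-10*, *con-13*, *eas*, *fl*) was 1022 to 3445 CPM in WT dark, 85030 to 139298 CPM in WT light and 18032 to 36268 CPM in dark ∆*ve-1*. It was 38590 to 80998 CPM in light ∆*ve-1*, 683 to 4472 CPM in the w libraries and 8623 to 19716 CPM in the vw libraries. These 6 genes did not move as one either. *eas* had 95410 CPM ± 35950 in WT light and 26272 CPM ± 3390 in light ∆*ve-1*, and *con-13* and *fl* were also lower in the latter. By contrast *con-6*, *con-8* and *con-10* had 13454, 2933 and 3397 CPM in WT light and 20806, 6843 and 8333 CPM in light ∆*ve-1*. All 6 were detected in each condition, and the part of conidia in the members' levels was not tested. A list of 7 genes was taken for female sexual tissue, although it includes *ccg-4*, which encodes the pheromone precursor of mating type A. Of these, *bek-1* was near 0 (0.602 CPM ± 0.174 in WT dark) and *pre-1* was low (6.66 CPM ± 1.93). The others, *sub-1*, *fsd-1*, *poi-2*, *asm-1* and *ccg-4*, lay at 71.7 to 2792 CPM in WT dark. The sum of the 7 was 977 to 7665 CPM in WT dark, 5618 to 11254 CPM in WT light, 3064 to 18378 CPM in dark and 1159 to 5299 CPM in light ∆*ve-1*, 2089.5 to 6179.8 CPM in w and 1465 to 34866 CPM in vw. These genes did not move as one. The mean of *asm-1* was 435 CPM ± 37.3 in WT dark, 167 CPM ± 26.1 in dark ∆*ve-1* and 161 CPM ± 80.5 in dark vw. That of *ccg-4* was 247 CPM ± 191, 7929 CPM ± 8528 and 13909 CPM ± 13507, the highest of the 7 in dark ∆*ve-1* and dark vw. Like *asm-1*, the means of *sub-1*, *fsd-1* and *poi-2* were lower in dark ∆*ve-1* (38.2, 114 and 166 CPM) than in WT dark (71.7, 154 and 2792 CPM). In WT light *fsd-1* had a lower mean than in WT dark (73.3 CPM ± 67.0), and *sub-1*, *poi-2*, *asm-1* and *ccg-4* had higher ones. The part of female tissue in the members' levels was not tested.

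The name under which such genes are easily filed, genes repressed by light and unaffected by loss of velvet in the dark, holds only in the loose sense of the 2-fold window. In dark ∆*ve-1*, 47 of the 52 members had a lower mean than in WT dark, and 30 of them had at most 66.7% of it. Only 5 members were within 0.9 to 1.1 of it, and 5 were above it, with *NCU11309* (141%) and *NCU01357* (134%) the highest. The members' median was 61.7% of WT dark, against 91.7% for all genes of at least 10 CPM. For 21 members every dark ∆*ve-1* library lay below every WT dark library, beside 30.6% of all genes tested, a count from the libraries that chose the members. In the tests of the other comparisons, a gene was called when its edgeR adjusted p was under 0.05 and it changed by more than 1 on the log2 scale. The members are the upper end of a continuous range of 384 genes, as the plot of both ratios shows. Just inside the lower edge of the window were *NCU00984* (0.503), *NCU07332* (0.504) and *gcp-1* (0.514), and just outside it *NCU11050* (0.495), *spa-1* (0.490) and *NCU08168* (0.489). At the threshold for light, *NCU00984* (0.330), *NCU08334* (0.330) and *acy-1* (0.329) were the last inside, and *NCU04525* (0.334), *NCU00537* (0.335) and *pup-3* (0.335) the first outside. At the threshold for level, *NCU04812* (10.1 CPM), *NCU06817* (10.1 CPM) and *NCU08522* (11.04 CPM) were inside, and *mic-34* (9.62 CPM), *NCU09627* (9.36 CPM) and *gh81-1* (9.23 CPM) outside.

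**Figure D1:**
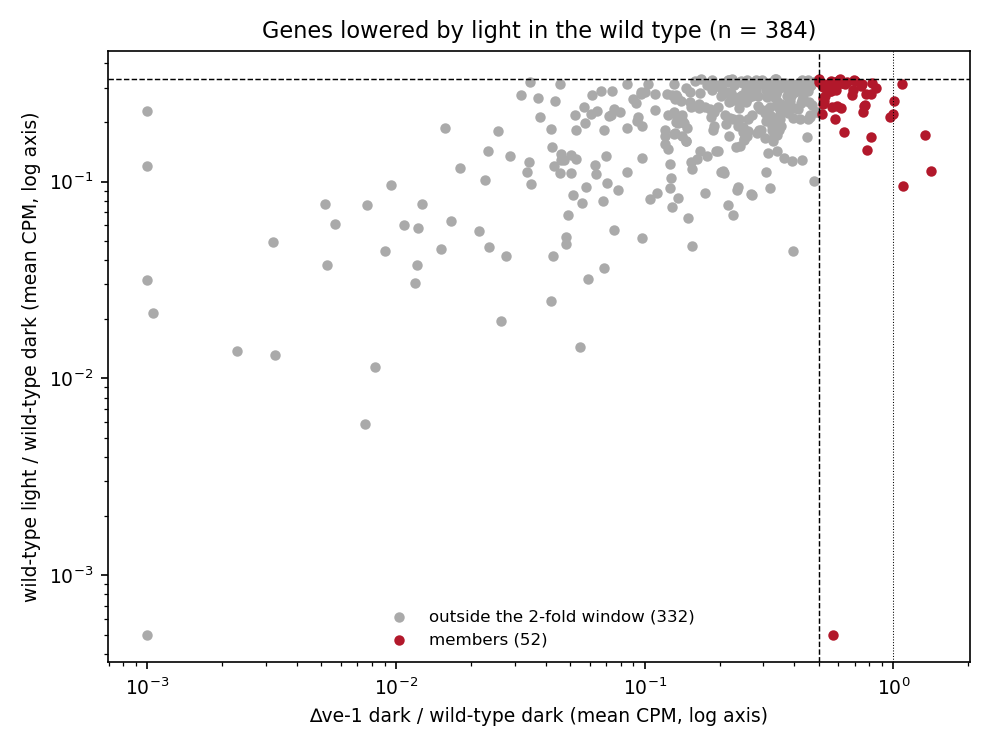
Each point is a gene lowered by light in WT, placed by its ∆*ve-1* dark mean over its WT dark mean (x) and its WT light mean over its WT dark mean (y), both on log axes, with dashed lines at 0.5 and at 33.3% and a dotted line at equal dark levels. The 52 members (red) continue the cloud of the other 332 genes (grey) and lie mostly left of the dotted line; 5 points with a ratio near or at 0 are drawn at the edge, 1 of them a member.

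Membership rested on the scaling of the libraries. The normalization factors (TMM, which sets the level at which most genes are equal) were 1.18 to 1.41 in WT dark, 0.695 to 0.882 in WT light and 0.659 to 0.9005 in dark ∆*ve-1*. With another scaling of the same kind (RLE), 45 of the 48 genes selected were among the 52. Without any factor the rule selected 125 genes, of which 7 were among the 52. Leaving out WT light replicate 3 gave 153 genes, 45 of them among the 52, and leaving out light replicate 2 gave 84, also with 45. Without WT dark replicate 1 it selected 38 genes (29 shared), and without dark replicate 3, which was far below the others for several members, 61 (33 shared).

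Over the 8 conditions, WT light stood lowest. It had the lowest mean of all conditions for 46 of 52 members, and light ∆*ve-1* had it for 4 more. The members' median relative to WT dark was 28.9% in WT light, 61.7% in dark and 47.1% in light ∆*ve-1*, 87.9% in dark and 70.0% in the light w libraries, and 82.2% in dark and 74.8% in the light vw libraries. For all genes of at least 10 CPM these medians were 91.7 to 99.2%. In light replicate 1 of w alone, the members' median was 47.8%, beside 70.6% for all genes tested, so part of that drop was shared by all genes. Light ∆*ve-1* had a higher mean than WT light for 48 members, and for 39 members its mean fell between WT light and dark ∆*ve-1*. The light w libraries had a higher mean than WT light for 51 members, the exception being *NCU14165*. Both statements include WT light, which the rule chose to be low.

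**Figure D2:**
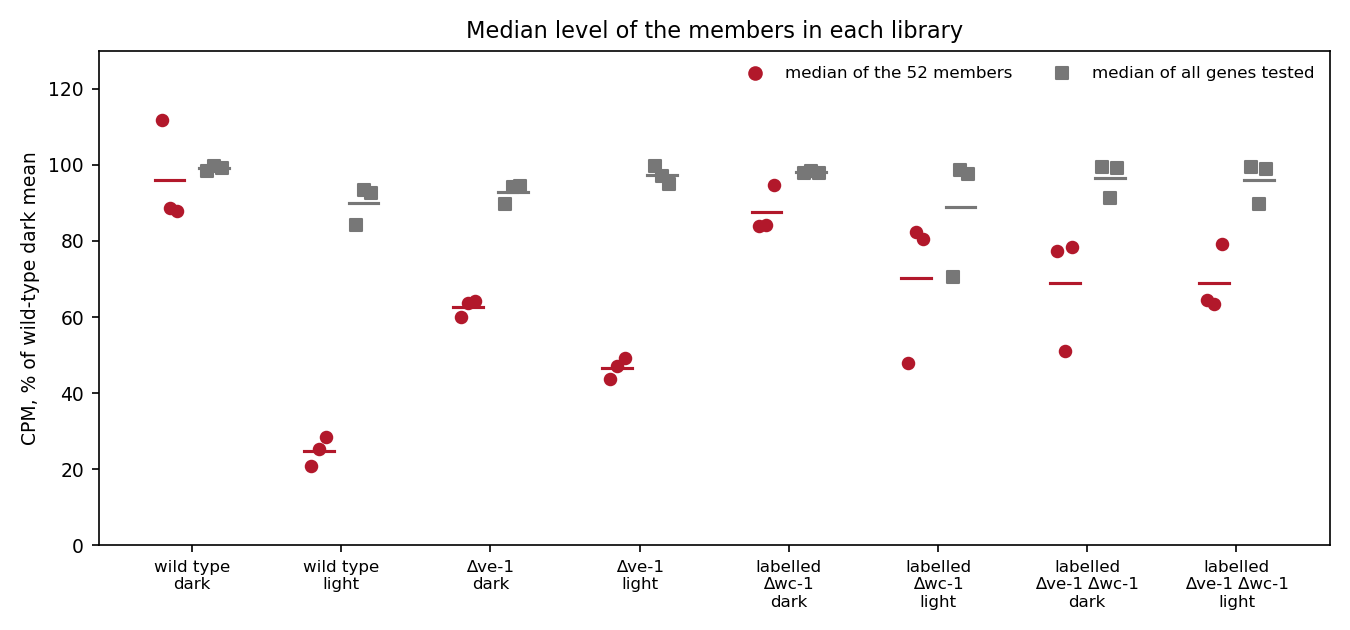
Median level in each of the 24 libraries, as a percentage of the WT dark mean of each gene, for the 52 members (red circles) and for all 9412 genes tested (grey squares), with dashes at the mean of 3 libraries. The members' median is 20.8 to 28.5% in WT light and 43.8 to 49.1% in light ∆*ve-1*, and in the w libraries it is 80.6 to 94.6% except for light replicate 1 at 47.8%. The median of all genes is also low in that library, at 70.6%, beside 97.7 to 98.7% in the other w libraries.

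The members' levels varied widely between libraries. In WT dark the median coefficient of variation over the members was 30.2%, and 14 members exceeded 50%. Dark replicate 3 was the lowest library for 29 members and was below 0.5 times the mean of the others for 13, among them *NCU01011*, *NCU08337*, *NCU11309*, *NCU01357*, *NCU14165*, *NCU07441* and *ccg-9*. Of the light w libraries, replicate 1 was the lowest for 34 of 52 members, beside 54.9% of all genes tested. Among the vw libraries in the dark, replicate 2 was the lowest for 28. Both belong to the libraries in which few genes held many counts. The median of all genes was 91.3% of WT dark in that vw library, beside 99.3% in each of the other dark vw libraries. The counts for WT dark and vw, and the coefficient of variation, were not computed over all genes. Whether the members varied more than other genes was thus not tested. With the share of the 10 most abundant genes as a covariate in edgeR, 0 members were called for light in w and for light in vw, and 6 (5 lower and 1 higher) for vw against w in the dark. Calls over all genes were not counted in these fits.

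**Figure D3:**
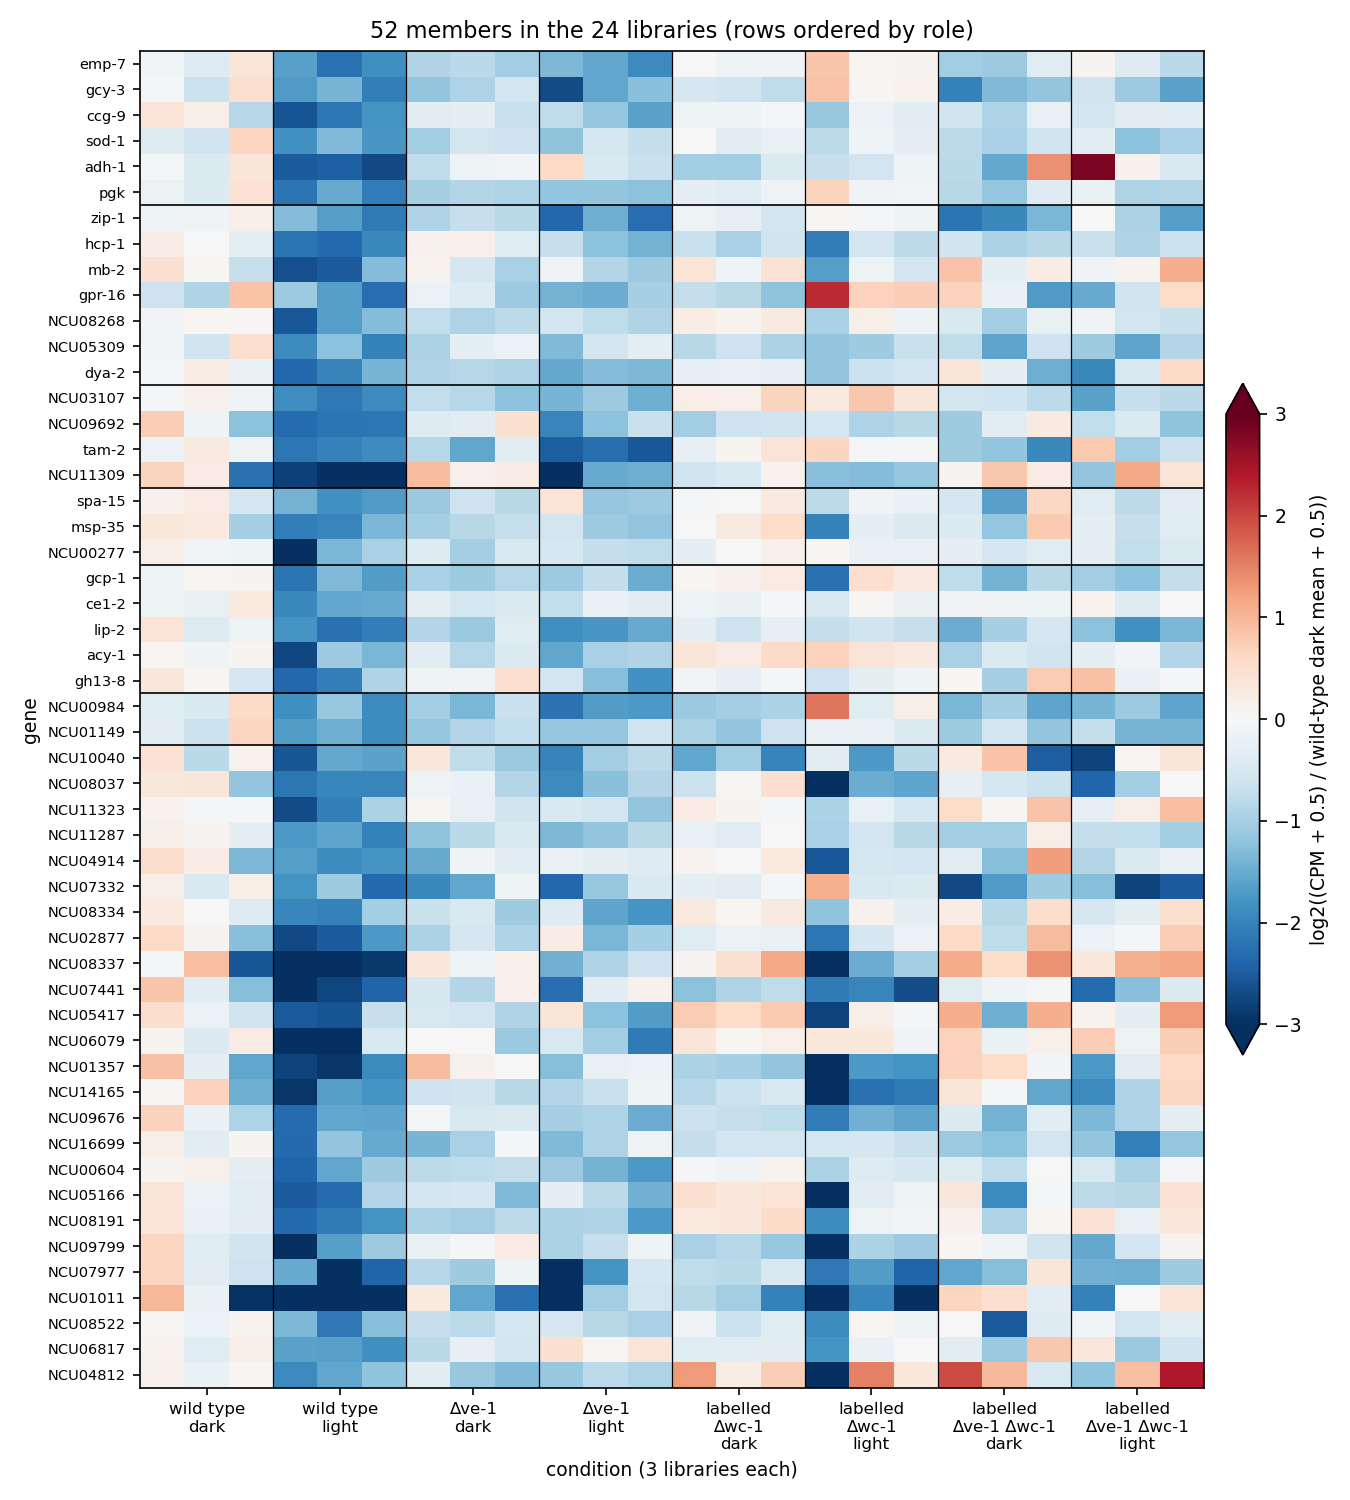
Level of each member (rows, ordered by role with black lines between the roles) in each library (columns, 3 per condition) as log2 of CPM plus 0.5 over the WT dark mean plus 0.5; blue is lower and red higher. The block of 3 WT light columns is blue in all rows by construction, light ∆*ve-1* is blue in most, and *gpr-16*, *gcy-3*, *emp-7*, *pgk* and *NCU00984* are red in light replicate 1 of w.

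Whether the members responded to light in the other strains was tested on libraries that the rule did not use, except that the dark ∆*ve-1* libraries entered it through the 2-fold window, which favours genes that happened to be high there. In ∆*ve-1*, 43 of 52 members had a lower mean in light than in the dark, with a median log2 fold change of -0.39 against 0.01 for all genes. No member passed the test (edgeR quasi-likelihood, Benjamini-Hochberg over 9412 genes), beside 0.106% of all genes. At an unadjusted p below 0.05, 10 members were lower and none was higher, beside 1.97% and 3.85% of all genes. For 18 members all light libraries lay below all dark libraries, beside 6.71% of all genes, and for 1 member, *NCU06817*, all lay above, beside 9.21%. limma-voom with quality weights called 5 members lower and DESeq2 called 2 on all libraries and 3 on the 6 libraries compared. The share of all genes called by these methods was not counted here, so it is not known whether the members exceeded it. The study, with DESeq2, reported light-regulated genes at this stage in ∆*ve-1* and in ∆*wc-1*, and none in the double mutant.

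In the w libraries the members split. The median log2 fold change was -0.33, against -0.07 for all genes, with values from -2.37 (*NCU08337*) to 2.35 (*gpr-16*). No member was called, beside 0% of all genes. At an unadjusted p below 0.05, 8 members were lower and 3 higher, beside 2.11% and 11.9% of all genes. All light libraries lay below all dark libraries for 20 members, beside 15.1% of all genes, and above them for 7, beside 14.7%. Without light replicate 1 these counts were 21 and 9, beside 19% and 22.2% of all genes (2 libraries against 3, chosen after seeing the data). DESeq2 on all libraries called 2 members higher and 2 lower, on the 6 libraries compared 1 higher and 4 lower, and limma-voom called 2 higher and 5 lower. Here too the share of all genes called by these methods was not counted. Leaving out light replicate 2 made *NCU00984* pass in edgeR, with a log2 fold change of 2.10 and an adjusted p of 0.0427.

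In the vw libraries the members' median log2 fold change with light was -0.11, and 34 of 52 were negative, beside 50.6% of all genes. No member was called, beside 0% of all genes, and none by DESeq2 or limma-voom. At an unadjusted p below 0.05 none was lower and 2 were higher, *tam-2* and *zip-1*, beside 0.276% and 1.05% of all genes. The light and dark libraries did not overlap for 1 lower member, *NCU07441*, beside 1.01% of all genes, and for 1 higher member, *tam-2*, beside 0.85%. Dark replicate 1 and light replicate 3, the pair with the highest rank correlation, belong to this comparison.

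The difference between the light effects of ∆*ve-1* and of the w libraries was tested directly. It includes the dark ∆*ve-1* libraries, which entered the rule through the 2-fold window. The window favours genes high there, and so a more negative light effect in ∆*ve-1*. This limit holds for the test, for the counts of libraries without overlap, and for the differences of single members given below. It was called for none of the members, beside 0.0212% of all genes. At an unadjusted p below 0.05 it was more negative in ∆*ve-1* for 6 members, *gpr-16*, *NCU00984*, *gcy-3*, *tam-2*, *zip-1* and *emp-7*, beside 7.14% of all genes, and less negative for *NCU14165*, beside 3.27%. For 5 members, *zip-1*, *emp-7*, *pgk*, *gcy-3* and *NCU00984*, all light libraries lay below the dark ones in ∆*ve-1* and above them in the w libraries, beside 0.786% of all genes. For 7 members, *NCU08337*, *NCU00604*, *dya-2*, *NCU09676*, *NCU11309*, *NCU01357* and *ccg-9*, the light libraries lay below in both strains, beside 1.29%.

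**Figure D4:**
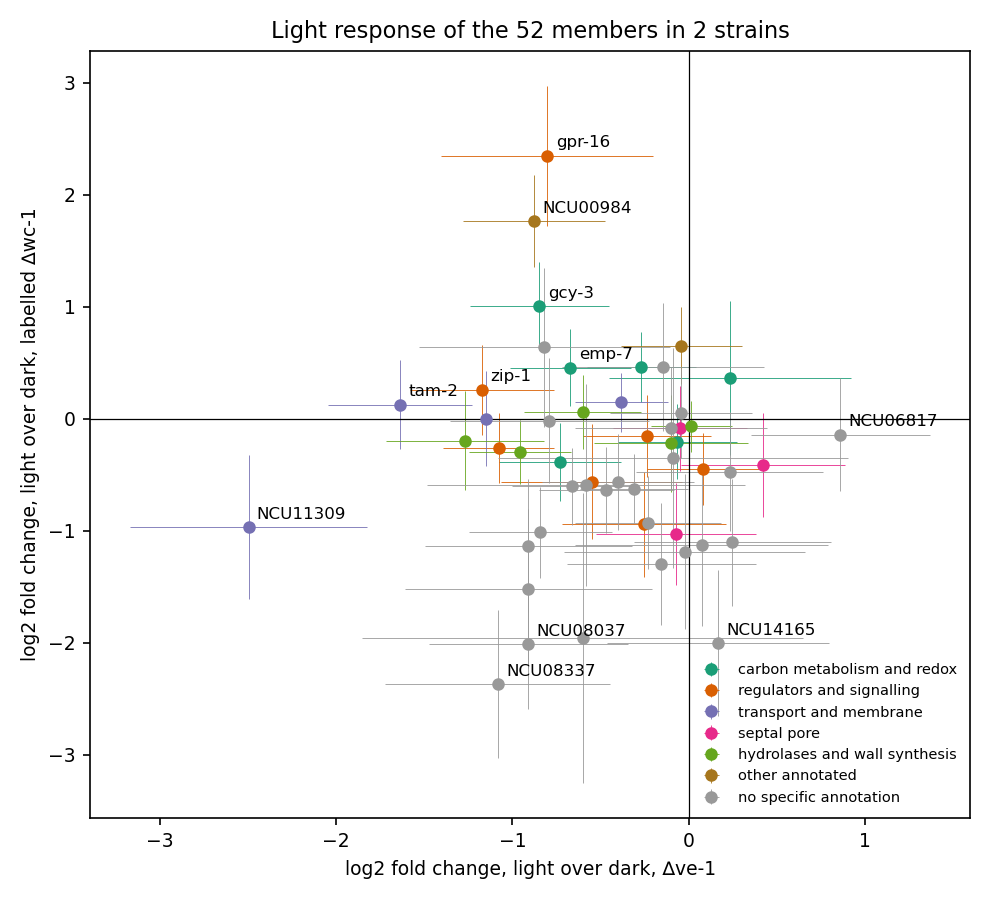
Log2 fold change of light over dark of each member in ∆*ve-1* (x) and in the w libraries (y), with bars of 1 standard error from the edgeR fit and colours by role. Of the 52 points, 43 lie left of 0 and 38 below 0; *gpr-16*, *NCU00984* and *gcy-3* lie highest, and *NCU08337*, *NCU08037* and *NCU14165* lowest. No point passed the test in either direction in either strain.

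The comparisons of vw with ∆*ve-1* in light and with w in the dark used no library of the rule. In light, 43 of 52 members had a higher mean in the vw libraries than in ∆*ve-1*, with a median log2 fold change of 0.50 against 0.05 for all genes. A single member, *tam-2*, was called higher, beside 0.414% of all genes, and none lower, beside 0.287%. At an unadjusted p below 0.05, 17 members were higher and none lower, beside 4.90% and 3.35% of all genes. All vw libraries lay above all of ∆*ve-1* for 14 members, beside 5.17% of all genes, and below for none, beside 4.94%. DESeq2 called 6 members higher on all libraries and 4 on the 6 compared, and limma-voom 7, with none lower, again without a count over all genes. In the dark, against the w libraries, the vw libraries had a median log2 fold change of -0.11 over the members and 0.05 over all genes. Here 4 members were called lower, *zip-1*, *tam-2*, *acy-1* and *NCU03107*, beside 5.4% of all genes, and none higher, beside 7.09%. All libraries lay below for 13 members, beside 23.6% of all genes, and above for 4, beside 24.6%. The shares of members lower in the dark were thus near those of all genes. The 4 calls fell to 0 without dark replicate 3 of w or dark replicate 2 of vw. They fell to 2 without w dark replicate 1, w dark replicate 2 or vw dark replicate 1. Without vw dark replicate 3, *zip-1* alone of the 4 was still called (adjusted p = 0.0154), and 1 other member was called lower and 1 higher. Calls over all genes were not counted with libraries left out, so these losses cannot be set against a general loss of calls.

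Carbon metabolism or redox balance is served by 6 members, *emp-7* (enolase) and *pgk* (phosphoglycerate kinase), both enzymes of lower glycolysis, *adh-1* (alcohol dehydrogenase), *gcy-3* (aldose reductase), *ccg-9* (a clock-controlled trehalose synthase) and *sod-1* (superoxide dismutase). All 6 had a lower mean in dark ∆*ve-1* than in WT dark, by log2 fold changes of -0.94 to -0.30. With light, their median log2 fold change was -0.47 in ∆*ve-1* (5 of 6 negative), 0.41 in the w libraries (4 of 6 positive) and 0.29 in the vw libraries (5 of 6 positive). None of these 18 values passed the test. Over all oxidoreductases tested, the class of *adh-1* and *gcy-3*, the median was 0.33 in w and 0.02 in ∆*ve-1*.

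Enolase, *emp-7* (NCU10042, linkage group I, 5945167 to 5948228, assembly NC12), had 1152, 927 and 1573 CPM in WT dark and 391, 263 and 342 CPM in WT light. In ∆*ve-1* it had 650, 698 and 593 CPM in darkness and 480, 415 and 323 CPM in light. In the w libraries it had 1206, 1093 and 1136 CPM in darkness and 2158, 1262 and 1289 CPM in light. The light libraries were thus all below the dark ones in ∆*ve-1* and all above them in the w libraries, where replicate 1 was far above the others. In the vw libraries it had 595, 575 and 941 CPM in darkness and 1286, 932 and 700 CPM in light, which overlapped. Its light effect differed between ∆*ve-1* and the w libraries by a log2 value of -1.13 ± 0.49 (SE), with an adjusted p of 0.467 in edgeR.

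The other glycolytic member, *pgk* (NCU07914), had 297.6 CPM ± 95.4 in WT dark and 79.0 CPM ± 21.1 in WT light. In ∆*ve-1* its libraries hardly varied, with 148, 162 and 156 CPM in darkness and 131, 130 and 126 CPM in light. In the w libraries it had 245, 232 and 272 CPM in darkness and 474, 276 and 280 CPM in light. The aldose reductase *gcy-3* (NCU04510) had 213, 252 and 325 CPM in dark ∆*ve-1* and 75.0, 162 and 202 CPM in light, and 340, 320 and 282 CPM in darkness and 876, 493 and 521 CPM in the light in w. For both genes the 2 light conditions fell on opposite sides of their dark libraries, by log2 differences of -0.73 ± 0.44 for *pgk* and -1.85 ± 0.56 for *gcy-3*, with edgeR adjusted p of 0.540 and 0.435. Per kilobase of gene span, these were among the more abundant members in WT dark, with 398 CPM per kb for *emp-7*, 342 for *gcy-3* and 130 for *pgk*, against a median of 29.8 over the members and 12.7 over all genes.

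The alcohol dehydrogenase *adh-1* (NCU01754) had a dark mean 5.91 times its light mean in WT (340, 261 and 448 CPM against 61.2, 63.2 and 53.1 CPM). In ∆*ve-1* it had 207, 315 and 330 CPM in darkness and 527, 255 and 219 CPM in light, so that the groups overlapped. In the vw strain it ran from 121 to 898 CPM in darkness and from 255 to 2494 CPM in light, so that a single light library, replicate 1, carried its high mean. Trehalose synthase *ccg-9* had 434 CPM ± 173 in WT dark and 97.9 CPM ± 26.9 in WT light. Its light libraries lay below the dark ones in ∆*ve-1* (255, 194 and 143 against 350, 357 and 274 CPM) and in the w libraries (196, 385 and 347 against 397, 398 and 422 CPM). Superoxide dismutase *sod-1* had 239.8 CPM ± 42.6 in dark and 229 CPM ± 52.8 in light ∆*ve-1*, overlapping, against 396 CPM ± 197 and 129.7 CPM ± 24.8 in WT.

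Roles in regulation, signalling or cell organisation are held by 7 members, *zip-1* (a bZIP transcription factor), *hcp-1* (a phosphorelay signalling protein), *gpr-16* (annotated as an integral membrane protein and named as a G-protein-coupled receptor), NCU08268 (annotated as a regulator of the TOR growth pathway), NCU05309 (annotated as similar to Scn1, a protein of fission yeast), *dya-2* (dynamin-2, a membrane-remodelling GTPase) and *mb-2* (male barren-2). Their median log2 fold change with light was -0.55 in ∆*ve-1* (6 of 7 negative), -0.26 in the w libraries (5 of 7 negative) and 0.07 in the vw libraries.

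The transcription factor gene *zip-1* (NCU08055, linkage group I, 117750 to 119387) was the most abundant member. It had 2212, 2246 and 2786 CPM in WT dark, 979, 763 and 555 CPM in WT light, 1261, 1500 and 1381 CPM in dark ∆*ve-1* and 475, 871 and 492 CPM in light ∆*ve-1*. All WT dark libraries lay above those of dark ∆*ve-1*, which lay above all light libraries of both strains, and the light libraries of the strains overlapped. In w it stayed high, at 2161, 2048 and 1641 CPM in darkness and 2464, 2338 and 2197 CPM in light, so that light no longer went with a lower level. In vw it had 527, 632 and 926 CPM in darkness and 2390, 1248 and 769 CPM in light. In the dark it was lower there than in w, by a log2 fold change of -1.49 ± 0.41 (edgeR adjusted p = 0.0215, all 3 libraries below). That call was lost in 6 of 16 alternatives, including each w dark library left out, and the adjusted p of all 16 ranged from 3.31e-05 to 0.0931. In light ∆*ve-1* it was -1.17 ± 0.41 against the dark, which did not pass (adjusted p = 0.606).

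The phosphorelay gene *hcp-1* (NCU07221) overlapped with WT in the dark, with 84.9, 86.0 and 60.6 CPM in ∆*ve-1* beside 91.0, 78.8 and 63.1 CPM in WT. In light it had 48.1, 32.7 and 28.7 CPM in ∆*ve-1* and 16.7, 14.9 and 19.9 CPM in WT. The light libraries of ∆*ve-1* were thus below its dark ones and above those of WT, with a log2 fold change of -1.08 ± 0.31 against the dark (edgeR adjusted p = 0.386). In w and vw, dark and light overlapped. The receptor-like gene *gpr-16* (NCU02903) had 25.6, 23.7 and 18.0 CPM in darkness and 202, 69.3 and 71.1 CPM in light in w. This was the reverse of WT (27.2, 22.3 and 77.8 CPM in darkness, 19.8, 13.2 and 8.32 CPM in light), and all 3 light libraries lay above the dark ones. Its log2 fold change of 2.35 ± 0.63 did not pass in edgeR (adjusted p = 0.200), while DESeq2 on all and on 6 libraries and limma-voom called it, in a range of adjusted p of 0.000507 to 1 over 16 alternatives. Without light replicate 1 the value was 1.64. The *mb-2* gene had 55.8 CPM ± 21 in WT dark and 13.4 CPM ± 7.59 in WT light, and in the vw libraries in light (51.6, 60.3 and 119 CPM) it lay above those of ∆*ve-1* (51.2, 30.1 and 26.0 CPM). *dya-2* had 13.1 CPM ± 2.12 and 3.25 CPM ± 1.3 in WT dark and light. NCU08268 had 36.2 CPM ± 1.86 and 10.47 CPM ± 4.38, and NCU05309 had 34 CPM ± 12.5 and 10.4 CPM ± 3.38.

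Transport or membrane roles are held by 4 members, *tam-2* (an ammonium transporter), NCU03107 (a transporter of the major facilitator superfamily), NCU11309 (an integral membrane protein) and NCU09692 (a phosphatidic acid phosphatase, an enzyme of phospholipid metabolism). With light all 4 were negative in ∆*ve-1*, with a median log2 fold change of -1.39, and their median was 0.06 in the w libraries and -0.18 in the vw libraries.

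The ammonium transporter gene *tam-2* (NCU05843, linkage group VII, 4026131 to 4028777) was the member with the most calls. It had 55.4, 76.1 and 56.1 CPM in WT dark, 13.5, 14.9 and 16.4 CPM in WT light, 34.3, 20.9 and 50.5 CPM in dark ∆*ve-1* and 10.9, 12.7 and 10.3 CPM in light ∆*ve-1*. In w it had 52.6, 66.5 and 82.1 CPM in darkness and 98.3, 60.1 and 61 CPM in light. In vw it had 29.7, 27.2 and 16.1 CPM in darkness and 109, 30.1 and 40.01 CPM in light. All light libraries lay below all dark ones in WT and ∆*ve-1*, they overlapped in w, and they lay above the dark ones in vw. In light it was higher in vw than in ∆*ve-1*, by a log2 fold change of 2.40 ± 0.42 (edgeR adjusted p = 0.00510, all 3 libraries above). Without the highest library, light replicate 1, it was 1.63 (adjusted p = 0.0319). The call was lost without ∆*ve-1* light replicate 3 (adjusted p = 0.0513) and in edgeR fitted to just the 6 libraries (0.165), and the 16 alternatives gave 2.94e-06 to 0.165. In the dark it was lower in vw than in w, by -1.47 ± 0.41 (adjusted p = 0.0218). That call was lost without dark replicate 3 of w (0.101) and without dark replicates 2 or 3 of vw (0.0643 and 0.0592). The difference between its light effects in the vw strain and in ∆*ve-1* was 2.93 ± 0.57 on the log2 scale, with an edgeR adjusted p of 0.0770. That difference includes the dark ∆*ve-1* libraries used by the rule, which favours a positive value.

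**Figure D5:**
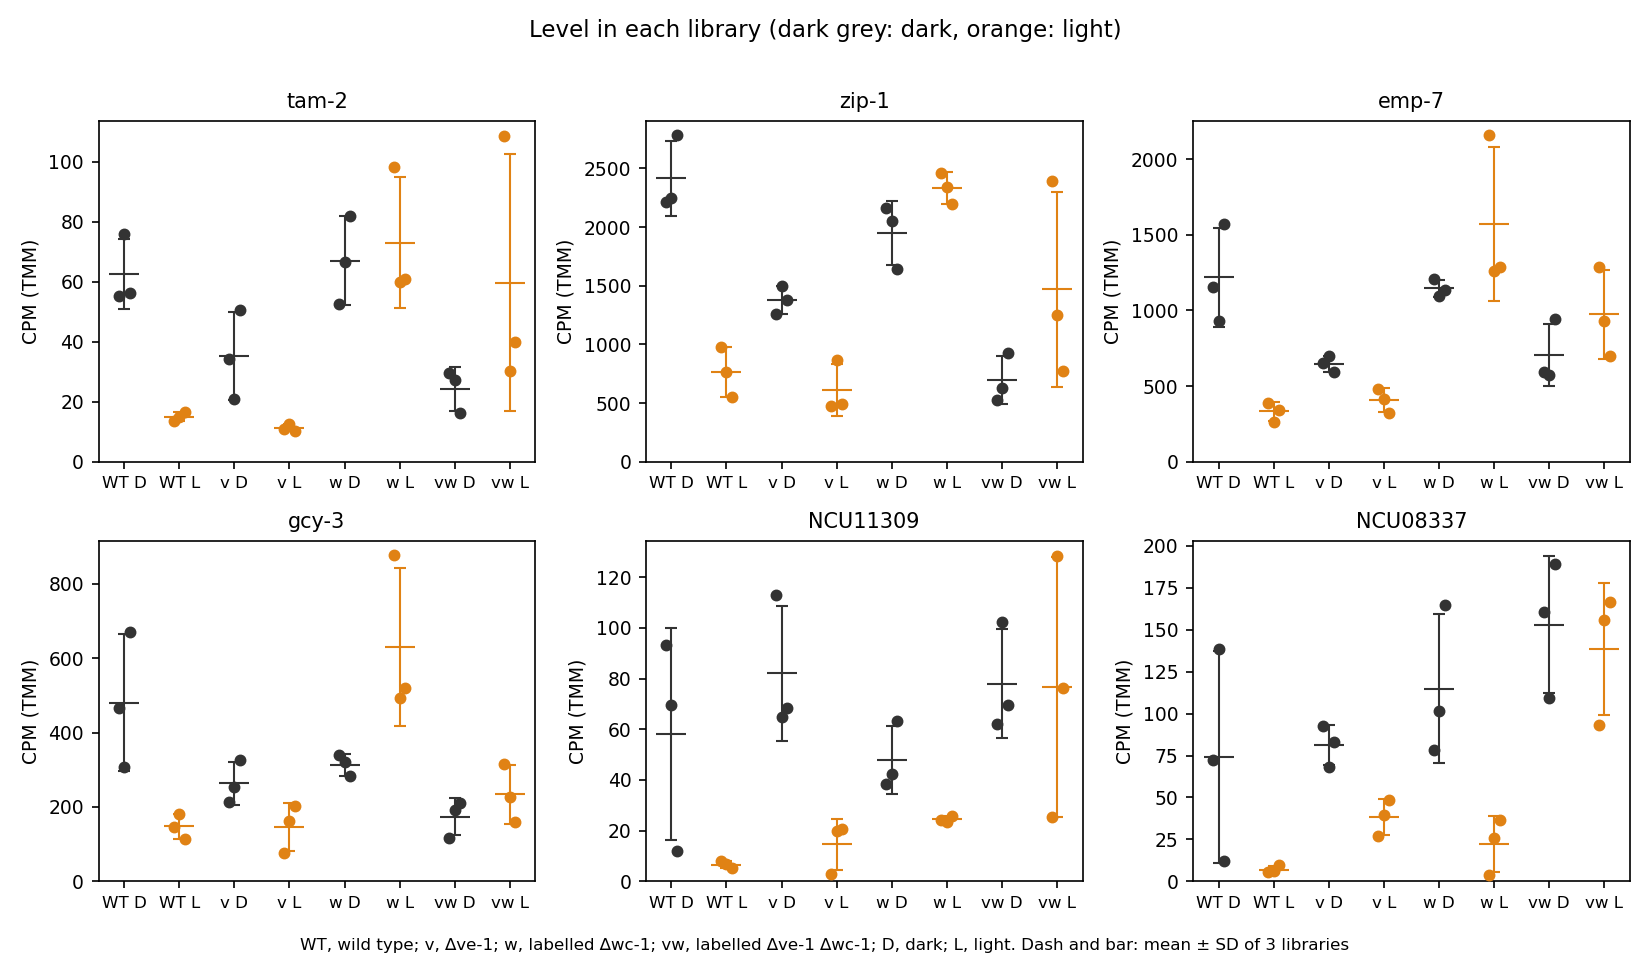
CPM (TMM-scaled) of 6 members in each of the 24 libraries, as points with the mean and SD of 3 libraries, dark in grey and light in orange; the strains are WT, ∆*ve-1* (v) and those labelled ∆*wc-1* (w) and ∆*ve-1* ∆*wc-1* (vw). For *tam-2*, *zip-1*, *emp-7* and *gcy-3* the light points lie below the dark ones in WT and v and not in w, whereas for NCU11309 and NCU08337 they lie below in WT, v and w and overlap in vw.

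The membrane protein gene NCU11309 had the second strongest difference in WT among members with a count in light, with a dark mean 8.81 times the light mean, and its dark libraries overlapped between ∆*ve-1* (113, 64.9 and 68.5 CPM) and WT (93.4, 69.4 and 11.9 CPM, with replicate 3 far below). In light it had 7.97, 6.66 and 5.21 CPM in WT, 2.84, 20.0 and 20.8 CPM in ∆*ve-1*, and 24.3, 23.2 and 26.0 CPM in w, each below the dark libraries of its own strain. In vw it had 62.0, 102 and 69.7 CPM in darkness and 25.5, 128 and 76.2 CPM in light, which overlapped. Its log2 fold change with light was -2.50 ± 0.67 in ∆*ve-1* and -0.97 ± 0.64 in w, with edgeR adjusted p of 0.247 and 0.503. The transporter NCU03107 (linkage group I, 4584244 to 4586881) had 198, 191 and 276 CPM in darkness in w and 117, 114 and 100 CPM in vw. That is a log2 fold change of -1.01 ± 0.27 (edgeR adjusted p = 0.0167), a size at the very threshold, which 9 of 16 alternatives did not call. NCU09692 had 137 CPM ± 85.7 in WT dark and 133 CPM ± 47 in dark ∆*ve-1*, and 29.2 CPM ± 1.49 and 60.05 CPM ± 26.1 in the light of these strains.

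The 3 members *spa-15*, *msp-35* and NCU00277 are annotated as septal pore-associated proteins, which sit at the pores that join the cells of a hypha. All 3 had a lower mean in dark ∆*ve-1* than in WT, with log2 fold changes of -0.85 to -0.62. Their light effects in ∆*ve-1* were -0.07, -0.05 and 0.42, with a median of -0.05. *spa-15* had 848, 927 and 551 CPM in WT dark and 292, 221 and 238 CPM in WT light, and 355, 508 and 439 CPM in dark and 1028, 348 and 366 CPM in light ∆*ve-1*, which overlapped. In w its light libraries (452, 724 and 677 CPM) lay below the dark ones (750, 779 and 937 CPM). Another septal pore gene, *spa-1*, was just outside the window.

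Another 5 members are hydrolases or enzymes of wall synthesis, *gh13-8* (an alpha-1,3-glucan synthase, which makes a cell-wall polymer), *lip-2* (a lipase), *ce1-2* (esterase D), *gcp-1* (a glutamate carboxypeptidase) and *acy-1* (an acylase). The dark levels of the glucan synthase gene overlapped between ∆*ve-1* and WT (45.8, 46.2 and 70.3 CPM beside 63.1, 51.5 and 35.3 CPM), and it had 33.3, 20.2 and 13.8 CPM in light ∆*ve-1*. All 3 of these light libraries lay below the dark ones of that strain and below the light libraries of the vw strain (91.7, 43.6 and 49.1 CPM). The lipase *lip-2* had 36, 30.8 and 52 CPM in dark and 18.2, 19.7 and 23.2 CPM in light ∆*ve-1*, with no overlap. The acylase *acy-1* (NCU04130) had 78.8, 72.1 and 91.3 CPM in darkness in w and 30.9, 45.0 and 40.4 CPM in vw, a log2 fold change of -1.06 ± 0.33 (edgeR adjusted p = 0.0406). The call was lost when any single library of the 6 was left out, and with the replicate number as a block, where the adjusted p was 0.0506. *gcp-1* had 338 CPM ± 25 in WT dark, 174 CPM ± 13.1 in dark and 162 CPM ± 43.3 in light ∆*ve-1*, and *ce1-2* had 106 CPM ± 20.2, 79.1 CPM ± 6.74 and 79.9 CPM ± 14.7 in the same conditions.

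A domain name alone describes 2 more members. NCU00984, with a von Willebrand domain, had 49.8, 52.7 and 55.5 CPM in darkness and 331, 83.3 and 122 CPM in light in w, where all light libraries lay above the dark ones, with replicate 1 far above and a log2 fold change of 1.76 that was 0.96 without it. In ∆*ve-1* it had 53.2, 41.5 and 68.1 CPM in darkness and 23, 33.3 and 32.2 CPM in light, all below. The log2 difference between these light effects was -2.64 ± 0.58, with an edgeR adjusted p of 0.131, the lowest of any member. NCU01149, with a cupin domain, had 12.8 CPM ± 2.57 in dark w libraries and 20.1 CPM ± 1.63 in light ones, also without overlap.

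The other 25 members have no specific annotation, a share of 48.1% beside 61.4% of all genes tested, and 1 of them, NCU14165, is not protein-coding. In the w libraries, 22 of 25 had a lower mean in light than in the dark, with a median log2 fold change of -0.64, and in ∆*ve-1* 20 of 25 did, with a median of -0.31. Over all genes tested without specific annotation, the median was -0.17 in w and 0.03 in ∆*ve-1*. No difference between groups of members was tested. NCU08337 (linkage group I, 5703756 to 5705407) had 72.4, 138 and 12.2 CPM in WT dark and 5.56, 6.02 and 9.59 CPM in WT light. It had 78.4, 102 and 165 CPM in darkness and 4.02, 26.0 and 36.4 CPM in light in w, a log2 fold change of -2.37 ± 0.66 (edgeR adjusted p = 0.217). In vw it was high in both, with 161, 109 and 189 CPM in darkness and 93.3, 156 and 166 CPM in light. NCU08037, at 325, 520 and 723 CPM in darkness and 36.7, 182 and 170 CPM in light in w, and NCU14165, at 17.0, 19.7 and 22.2 CPM and 1.61, 6.15 and 6.74 CPM, behaved likewise in that strain. The log2 fold change of NCU08037 was -2.01 ± 0.58, with an edgeR adjusted p of 0.217. In ∆*ve-1*, NCU14165 had 19.9, 20.3 and 17.2 CPM in darkness and 16.7, 19.2 and 28.5 CPM in light, which overlapped.

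NCU01011 had no count in any WT light library, and 23.3, 9.77 and 1.02 CPM in WT dark. Against a floor of 3 counts per library (0.121 CPM), its dark mean was 94.1-fold higher, but dark replicate 3 was itself near 1 CPM. The floor may not bound its level in light. Only 70, 316 and 144 genes had 1 to 10 counts in the WT light libraries, beside 496 to 538 in WT dark. Others with low ratios were NCU07441 (dark mean 6.90 times the light mean), NCU01357 (5.81 times) and NCU07977 (5.58 times). NCU10040, the member with the second highest level per kilobase (425 CPM per kb, after 1474 for *zip-1*), ran from 153 to 1535 CPM over the dark libraries of the vw strain, so its mean there says little.

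The members were spread over all 7 linkage groups, with 14 on I, 12 on IV and 9 on V, or 0.299 to 0.852% of the genes tested on each. NCU03107 and *gcp-1* (linkage group I, 4588557 to 4591644) are direct neighbours with 1675 bases between them. In the vw libraries in the dark, both lay below all of the w libraries (200, 126 and 189 against 349, 367 and 400 CPM for *gcp-1*). NCU08337 and NCU08334 have 2 genes between them, NCU16699 and NCU08191 have 4, and NCU11287 and NCU08522 have 5. The median gene span was 1986 bases for the members and 2169 for all genes tested. By class of annotation, beside 52 of all 9412 genes tested, the members included 3 of 72 genes of heterokaryon incompatibility and cell wall proteins (the 3 septal pore members, which the search words put in this class), 2 of 152 genes of kinases, phosphatases and G-protein signalling, 2 of 211 carbohydrate-active enzymes, 2 of 209 membrane transporters, 2 of 269 oxidoreductases, 2 of 97 peptidases and lipases, 1 of 126 transcription regulators and none of 151 genes of ribosome and translation.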

How the data were processed

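RNA-seq counts of 24 libraries, 3 per strain and light condition, were used. The authors used FastQC and fastp for quality and trimming, STAR for mapping to NC12 (strain OR74A) and featureCounts for strand-specific counting, and deposited raw counts for 10561 genes, all found in the RefSeq table of NC12. All columns were mapped to samples (0 left over). Genes were filtered with filterByExpr, scaled by TMM and fitted in R 4.3.3 with edgeR 4.0.16 (quasi-likelihood, 1 mean per condition, 16 residual degrees of freedom); a call needed an adjusted p under 0.05 and a change of more than 1 on the log2 scale. CPM values are TMM-scaled, and errors are SD over 3 libraries or SE of the fit. Precision is limited by the spread between libraries, which may be technical, since tissue was pooled. The members and lists were chosen with earlier results of these data known. Named were members with a symbol or product, those highest, lowest, called, neighbouring or beside a threshold. Symbols came from RefSeq or, where it gave none, from the annotation columns of the study's supplementary tables. Products came from those columns, and coordinates from RefSeq. Roles were grouped by hand after the values were seen. Alternatives were DESeq2 1.42.0, limma 3.58.1 voom, RLE, other filters, covariates, a replicate block and each library left out. Of the 5 pairs of conditions checked, 1 had all 3 correlations between same-numbered libraries over 0.1, dark libraries labelled ∆*ve-1* ∆*wc-1* and ∆*wc-1* (0.259, 0.190 and 0.275), a pairing that comes from the numbers in the labels. Figures used matplotlib 3.10.9.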

Additional observations from a re-analysis of the deposited data

How the results depend on the processing

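Values recomputed under other settings are given as numbers of members. The shares of all genes called under these settings were not counted, so the numbers cannot be set against them. Settings marked as added were chosen after seeing the data. For light in w (0 as reported), DESeq2 gave 4 on all libraries and 5 on 6 libraries, limma-voom 7, and leaving out single libraries 0 to 1. For light in ∆*ve-1* (0), the covariates for the 10 most abundant genes and for even counts gave 1 each, DESeq2 2 and 3, limma-voom 5, and leaving out single libraries 0. For light in vw, all settings gave 0, also without both replicates 2 (added). For vw against ∆*ve-1* in light (1), the covariates gave 3 and 4, DESeq2 6 and 4, limma-voom 7, edgeR on 6 libraries 0, and leaving out single libraries 0 to 1. Against w in the dark (4), DESeq2 on 6 libraries and limma-voom gave 7 each, and leaving out single libraries 0 to 3. The difference between light effects stayed at 0, also without light replicate 1 of w (added). The number of members (52) was 125 without normalization factors, 304 at a light ratio of at most 1/2, 18 at 1/4, and 38 to 153 with single libraries left out. The causes were not tested. With the replicate number as a block, the counts were 0, 0, 0, 1 and 3 in the same order, and the only call it changed was that of *acy-1*; in the other 4 pairs of conditions checked, same-numbered libraries correlated at -0.411 to 0.727, in none at over 0.1 for all 3 numbers. Of 804 recomputed values of single members, 1 changed sign: *adh-1* in light, vw strain against ∆*ve-1*, was -0.075 without light replicate 1 of the vw strain, and -0.075 to 2.14 over single libraries left out.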

Other observations

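Relatives of the members, chosen after the members' values were seen, give context for the groups above and are values with no test. Of the glycolytic genes, *gpd-1* (glyceraldehyde 3-phosphate dehydrogenase) had 1892 CPM in WT dark, 363 CPM in WT light and 616 CPM in dark ∆*ve-1*, below the 2-fold window, so that it met the light threshold and not the other. The phosphoglycerate mutase gene *emp-13* did likewise, with 127, 29.1 and 38.9 CPM. Hexokinase *emp-1* (521, 291 and 357 CPM) and 6-phosphofructokinase *emp-3* (227, 118 and 192 CPM) did not reach the light threshold. Hexokinase *emp-8* had the opposite order, with 73.7, 199 and 241 CPM, as had the phosphoglycerate mutase genes *emp-10* (33.2, 81.3 and 187 CPM), *emp-11* (26.2, 34.8 and 75.5 CPM) and *emp-15* (5.63, 17.9 and 18.7 CPM). Among superoxide dismutases, *sod-2* had 53.9 CPM in WT dark, 205 CPM in WT light and 665 CPM in dark ∆*ve-1*, whereas *sod-1* had 396, 130 and 240 CPM. The families of *adh-1* and *gcy-3* were mixed. In the same order, *adh-11* (70.5, 338 and 297 CPM), *adh-12* (94.6, 294 and 695 CPM) and *gcy-4* (49.1, 339 and 858 CPM) were lowest in WT dark. By contrast *adh-9* (55.1, 0.631 and 0.456 CPM) and *gcy-2* (43.2, 8.65 and 5.79 CPM) were highest there. Other genes of these families went either way. Of the ammonium transporters, *tam-4* had 500.5, 217 and 248 CPM and *tam-1* 537, 299 and 244 CPM in these conditions, and *tam-3* had 27.1, 70.9 and 25.5 CPM. In light, *tam-4* had 464 CPM ± 135 in w, 343 CPM ± 263 in vw and 160 CPM ± 42.4 in ∆*ve-1*, so that the spread in vw covered the value in ∆*ve-1*.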
